A study of Mus musculus with 32 samples.

Results

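Albumin and 9 other proteins that hepatocytes secrete into blood were followed across 5 mouse organs: Alb, the carriers Trf, Ttr, Gc and Rbp4, the fibrinogen chains Fga, Fgb and Fgg, fetuin-A (Ahsg) and prothrombin (F2). They were taken by gene symbol, and all 10 are among the 55289 named genes of each of the authors' 5 deposited tables. They made up 27.6% of the summed means of the table named for brain and at most 0.456% of any other. None of the 10 differed between Ftsj1-deficient and wild-type mice past the threshold in any organ. The clearest differences within the group lay between organs: Ttr stood at 25.5% of its brain-named level in the liver-named table and Trf at 2.79% to 7.69% in the 4 other tables. The other 8 genes stood at 0.548% or less there, except Gc and Fga in kidney, at 1.06% and 1.89%.

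Hepatocytes make most of the proteins of blood plasma. Albumin holds the osmotic pressure of plasma and carries fatty acids, bilirubin and drugs. Transferrin carries iron, transthyretin carries thyroxine and the retinol-binding protein Rbp4, and the vitamin D-binding protein Gc also binds actin released from dying cells. Fibrinogen is built from 3 chains encoded side by side in the genome, and thrombin, cut from prothrombin, turns it into fibrin. Fetuin-A keeps calcium phosphate in solution. Some of these genes are also transcribed outside the liver: transthyretin is the main secreted product of the choroid plexus, the epithelium that makes cerebrospinal fluid, and transferrin is made by oligodendrocytes. The kidney's proximal tubule takes filtered carrier proteins back through the receptors megalin (Lrp2) and cubilin (Cubn), held at the membrane by amnionless (Amn).

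The measurement was degradome sequencing, which ligates an adapter to uncapped poly(A) RNA and reads a short tag at its 5' end. A high value therefore means many fragments with an uncapped end and is not the amount of intact mRNA. Male mice aged 4 months with the genotype Ftsj1_DF, deficient in the tRNA 2'-O-methyltransferase Ftsj1, were compared with WT mice. All were fed ad libitum without special treatment, and the labels do not state the allele. There were 32 libraries from 14 mice. A set of 6 animals, 3 of each genotype, gave brain, heart, kidney and liver, and a separate set of 8, 4 of each genotype, gave spleen. Brothers are present in both sets, so the animals are not unrelated. Whole organs were pulverised, so fewer cells of a type and less RNA per cell cannot be told apart.

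The deposited tables hold, per gene, a mean over all libraries of an organ, a fold change, its standard error (SE) and p-values. Values for single libraries were not used here, because the tables hold none, and depth per library is therefore unknown. The means summed to between 48536401 and 73405489 normalized counts per table. The names of the brain and liver tables go against their contents. Intracellular hepatocyte genes summed to 2.82% of the brain-named table and 0.0255% of the liver-named table, while neuron markers summed to 0.00212% and 0.355%. The tables are therefore called brain-named and liver-named throughout. The direction of the fold change is not stated either, and a positive value is read as higher in deficient mice because Ftsj1 itself was negative in all 5 of the authors' deposited tables. Its log2 fold change there was -2.84 ± 0.38 (SE; brain-named), -3.38 ± 0.59 (liver-named), -3.17 ± 0.77 (spleen), -1.72 ± 1.03 (heart) and -1.56 ± 0.61 (kidney). The adjusted p of Ftsj1 was 0.594 for heart and 0.202 for kidney in the authors' deposited tables, so the targeted gene passed the threshold in the other 3.

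Promoters were examined because the 10 genes share their highest table. The RefSeq table for GRCm38.p6 gave 9 windows of 300 bases, from 250 bases before to 50 after a gene's start, for 8 of the 10 genes, with 2 windows for Rbp4. Short forms of 4 motifs were searched on both strands. TATAAA, the core of the TATA box that places the start of transcription, was in 1 window of Rbp4, 28 bases before that start, and in 13.6% of all 32851 windows of that length. TGTTTAC, a motif of the FOXA factors that open chromatin in liver, was in the other window of Rbp4, 241 bases before its start on the opposite strand, and in 3.65% of all windows. The 120 bases that hold each match are printed here, 5' to 3' on the gene's minus strand, with the match in capitals, since Rbp4 is the one gene with a match and with 2 starts. They are from GRCm38.p6, at chr19:38124812-38124931 for the TATA box and chr19:38125452-38125571 for the FOXA motif.
Rbp4, TATA box: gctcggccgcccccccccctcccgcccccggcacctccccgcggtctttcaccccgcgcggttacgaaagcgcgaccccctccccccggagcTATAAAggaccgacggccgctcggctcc
Rbp4, FOXA motif: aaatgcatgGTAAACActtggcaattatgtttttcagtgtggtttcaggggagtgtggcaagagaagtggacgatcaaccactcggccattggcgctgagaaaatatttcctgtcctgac

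CAAAGTCCA, a form of the HNF4 motif, was in 0 of the 9 windows and 0.475% of all, and TTGCGCAA, a C/EBP motif, in 0 of 9 and 0.183% of all. Each motif was thus found in at most 1 of the 9 windows. A match describes letters alone, and a window without one says nothing of the factor. In RefSeq's gene order, Fgg, Fga and Fgb follow one another on chromosome 3, Alb is followed by Afp and Afm on chromosome 5, and Ahsg by Fetub, Hrg and Kng2 on chromosome 16.

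Albumin had a deposited mean of 16371074 normalized counts in the brain-named table, or 22.3% of that table's sum. The deposited means of Alb elsewhere were 23967 (heart), 55860.2 (kidney), 83263 (liver-named) and 58061 (spleen). As shares of their tables' sums, these are 0.0475%, 0.115%, 0.122% and 0.119%. Set against the brain-named share, Alb stood at 0.213% in heart, 0.516% in kidney, 0.548% in the liver-named table and 0.534% in spleen. The last 3 lay within 1 SD of each other on the log2 scale, where the SD between libraries (0.57 to 1.03) was worked back from the authors' SE. The heart lay 2.42-fold below the kidney, beyond that SD. The tables were normalized separately, so levels across them are descriptions without a test. Levels of different genes are set side by side only as percents of each gene's own brain-named level, where gene length cancels.

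Outside the brain-named table, Gc stood at 0.684 (spleen) to 2.05 (kidney) times what Alb showed. Rbp4 stood at 0.398 (spleen) to 0.816 (liver-named) times what Alb showed. The deposited means of Gc were 621169.7 in the brain-named table, 693 (heart), 4353 (kidney), 2741 (liver-named) and 1506 (spleen) normalized counts, which put it at 0.162%, 1.06%, 0.475% and 0.365% of its brain-named share in the last 4. As a share, its kidney level was 2.23-fold above the liver-named one, beyond an SD between libraries of 1.03 on the log2 scale. The deposited means of these 2 tables, 4353 and 2741, differed by less than that SD, so the reading depends on the scaling. The deposited means of Rbp4 were 582104, 419, 1247, 2415 and 821 in the same order of tables, and its relative shares of 0.105% in heart and 0.212% in spleen were the lowest of the 10 genes there. Its liver-named and kidney shares, 0.447% and 0.324%, differed by less than the spread between libraries.

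Transthyretin stood apart in the liver-named table. The deposited means of Ttr were 410669 in the brain-named table, 663 (heart), 4317 (kidney), 97245 (liver-named) and 1500.3 (spleen) normalized counts. Its liver-named share was 25.5% of the brain-named one, against 0.235% in heart, 1.59% in kidney and 0.550% in spleen. Relative to Alb, Ttr was 46.6 times as high in the liver-named table as in the brain-named one, 3.08 times in kidney, and 1.10 and 1.03 times in heart and spleen. The 5 levels fell in the order brain-named, liver-named, kidney, spleen and heart, and every neighbour in that order differed beyond the spread between libraries.

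Markers of the choroid plexus were read beside Ttr. The transcription factor Otx2, with a deposited mean of 365 in the liver-named table, stood there at 7001% of its brain-named share and at 196% to 349.7% of it in the other 3 tables, and the chloride channel protein Clic6 had 1078 there and 19.7 to 97.8 elsewhere. Of the list of 12, these 2 with Enpp2 and Slc4a5 were highest in the liver-named table, 6 others in kidney, among them Folr1 and Kl, and Prlr in the brain-named table. Folr1, Kl, Tmem72 and Sostdc1, though highest in kidney, stood in the liver-named table at 1316% to 3853% of their brain-named shares. Prlr, Aqp1 and Cldn2 stood there at 18.6%, 5.42% and 5.57% of theirs. Enpp2 alone took 0.0190% of the liver-named table. The list summed to 0.0295% of the liver-named table, 0.201% of the kidney, 0.0242% of the brain-named, 0.0128% of the heart and 0.00939% of the spleen table. Its gene Kcnj13 is listed at 0 in all 5. So are Actc1 of the heart muscle list, Nefl of the neuron list and Hpd of the intracellular hepatocyte list. A 0 is therefore not read as absence of a cell type. The part of the choroid plexus in the Ttr level was not tested.

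Transferrin kept more of its level outside the brain-named table than the other members except Ttr in the liver-named table. The deposited means of Trf were 1727462 in the brain-named table, 33156 (heart), 39197 (kidney), 123302 (liver-named) and 81292 (spleen) normalized counts. Its shares were 2.79%, 3.43%, 7.69% and 7.09% of the brain-named one in the last 4, or 13.1, 6.65, 14.0 and 13.3 times what Alb showed. Heart and kidney lay within the spread between libraries of each other, as did spleen and the liver-named table, while the step from kidney to spleen, 2.07-fold, was beyond it.

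The 10 oligodendrocyte markers summed to 0.222% of the liver-named table. In the other tables they summed to 0.00433% (brain-named), 0.00394% (heart), 0.0394% (kidney) and 0.0294% (spleen), and all 10 were above 0 everywhere. By share, 8 of the 10 were highest in the liver-named table, and Aspa and Ugt8a in kidney. Aspa alone took 0.0282% of the kidney table and 0.00513% of the liver-named one. Mobp, a protein of myelin, had a deposited mean of 19967 in the liver-named table and 48.0 to 177 in the others. In spleen, where Trf was nearly as high as in the liver-named table, the markers differed among themselves. Mbp and Cnp stood there at 3135% and 984% of their brain-named shares, with means of 4963 and 8735, and the other 8 at 25.9% to 218%. The part of oligodendrocytes in the Trf level was not tested.

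**Figure D1:**
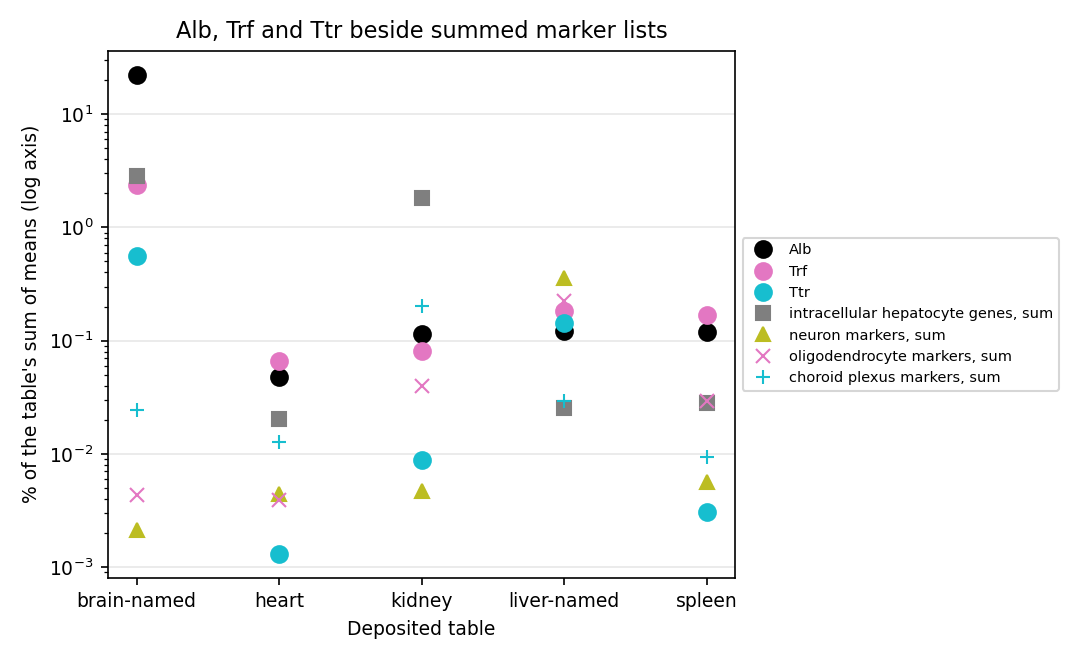
For each deposited table, the log y axis gives the share of the table's sum of means taken by Alb, Trf and Ttr (circles) and by the summed marker lists. Ttr stands at 0.143% and the neuron and oligodendrocyte markers at 0.355% and 0.222% in the liver-named table, while Alb and the intracellular hepatocyte genes peak in the brain-named one.

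The clotting proteins stood low outside the brain-named table, with 1 exception. Deposited means of Fga, the alpha chain of fibrinogen, were 11143 in the brain-named table, 18.8 (heart), 139 (kidney), 52.0 (liver-named) and 34.4 (spleen). For Fgb, the beta chain, they were 50316, 52.2, 138, 186 and 106 in the same order, and for Fgg, the gamma chain, 63078, 53.6, 166, 197 and 116. The chains kept close to each other relative to the brain-named table in heart (0.124% to 0.245%), in the liver-named table (0.336% to 0.503%) and in spleen (0.276% to 0.465%). In kidney, Fga stood at 1.89% and Fgb and Fgg at 0.416% and 0.398%. The kidney value of Fga was 3.75-fold above the liver-named one, beyond an SD between libraries of 1.16 on the log2 scale, whereas Fgb and Fgg differed between these 2 tables by less than their spread.

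Prothrombin (F2) had deposited means of 106291 in the brain-named table, 125 (heart), 328 (kidney), 436 (liver-named) and 255 (spleen) normalized counts. Its relative shares were 0.172%, 0.467%, 0.442% and 0.361%, close to those of Fgb and Fgg, and only the heart stood below its neighbour by more than the spread. Ahsg had deposited means of 293311, 997, 835, 1192 and 899.6 in the same order of tables. It was the flattest member outside the brain-named table, at 0.494%, 0.430%, 0.438% and 0.462%, with no neighbours among these 4 tables beyond the spread. Its heart share was the highest of the 8 genes without Trf and Ttr, 2.32 times what Alb showed there.

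Without Trf and Ttr, the 8 remaining genes spanned 0.105% to 0.494% of the brain-named share in heart (median 0.167%), 0.324% to 1.89% in kidney (0.448%), 0.336% to 0.548% in the liver-named table (0.444%) and 0.212% to 0.534% in spleen (0.363%). In the liver-named table the highest of the 8 was 1.63 times the lowest, although their brain-named means ran from 11143 to 16371074. Intracellular hepatocyte genes, which are not secreted, had medians of 0.294%, 0.791%, 0.632% and 0.731% in the same 4 tables. Heart muscle markers, measured the same way against the heart table, had medians of 0.461% (liver-named), 0.355% (kidney), 0.305% (spleen) and 0.213% (brain-named). Shares of this size were thus seen for genes typical of another organ too, and their source was not tested.

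Genes with the most similar pattern over the 5 tables were found among 23352 genes by the distance between log2 shares centred on each gene's mean. For Alb they were Apoa2, a protein of high-density lipoprotein, at a distance of 0.25, the tryptophan-degrading enzyme Tdo2 (0.27), Akr1c6 (0.30), the bile acid ligase Slc27a5 (0.32) and plasminogen, Plg (0.32). For Rbp4 they were the major urinary protein Mup3 (0.55), the urea cycle enzyme Arg1 (0.59), Mup18 (0.70), the haem carrier Hpx (0.71) and Slc27a5 (0.72). Ttr had no equally near gene. Its nearest were Igfbp2 (1.52), a carrier of insulin-like growth factors that stood at 12.1% of its brain-named share in the liver-named table, Itih3 (1.84, 13.3%), Cyp4f15 (2.06), Tmem132e (2.21) and the gap junction protein Gjb1 (2.39). For Trf they were Gm3787 (0.60), Nlrp12 (0.68), the zinc transporter Slc39a4 (0.70), Rarres1 (0.79) and the protease inhibitor Serpina3n (0.85). The likeness rests on 5 means per gene and is a description.

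Genotype was compared within each organ. The authors' deposited DESeq2 comparison gave an adjusted p for all 50 values, 10 genes in 5 tables. At a false discovery rate of 5%, 0 of 50 passed, and the smallest adjusted p was 0.401. The share of all tested genes that passed in the authors' deposited tables was 0.414% in the brain-named table, 1.19% (heart), 2.07% (kidney), 0.203% (liver-named) and 0.217% (spleen). At such shares, 0 of 10 genes per organ is near the background. With the unadjusted p under 0.05, 2 of 50 values passed, 1 in the heart and 1 in the kidney, where the share over all tested genes was 10.6% and 11.9%. For brain-named, liver-named and spleen none of the 10 did, against 10.8%, 10.4% and 5.97% of all tested genes. No other tool was run, since the tables hold no counts per library.

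In the brain-named table, where the 10 genes are most abundant, 8 fold changes were positive and 2 negative. The median log2 fold change was 0.37, against 0.04 over all tested genes, of which 53.3% were positive. For Alb the authors' deposited table gives a log2 fold change of 0.78 ± 0.41 (SE; adjusted p = 0.472). It implies means of 12029492 normalized counts in wild-type and 20712656 in deficient mice, a 1.72-fold difference with a 95% interval of 0.992 to 2.99. Trf had 0.64 ± 0.36 and Fga 0.60 ± 0.37 in the authors' deposited table. Ttr, Fgb, Fgg, Gc and Ahsg lay between 0.24 and 0.41 there, and F2 and Rbp4 both at -0.18. The SEs ran from 0.31 (Ahsg) to 0.61 (Rbp4), and each interval included 0. Apolipoproteins, also made by hepatocytes, had a median of 0.70 with 10 of 11 tested genes positive, and the intracellular hepatocyte genes 0.07 with 18 of 23 positive. Pancreatic acinar markers, whose cells belong to neither brain nor liver, had a median of 4.12 in this table, with all 8 tested genes positive and a summed level of 0.363% of the table, and heart muscle markers had 0.43 with 7 of 8 positive. The part of these in the members' values was not tested.

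In the heart table all 10 fold changes were negative, 8 of them opposite in sign to those of the brain-named table. The median log2 fold change was -0.62, against 0.01 over all tested genes, of which 51.1% were positive. Fga had the lowest value of the authors' deposited table among the members, -1.44 ± 0.72 (p = 0.0446, adjusted p = 0.449), with implied means of 27.4 normalized counts in wild-type and 10.1 in deficient mice. For Alb the authors' deposited table gives -0.69 ± 0.52, a fold of 0.621 with a 95% interval of 0.304 to 1.27. The others lay between -0.83 (Fgb) and -0.38 (Trf) in the authors' deposited table. Intracellular hepatocyte genes had the same sign in this table, with a median of -0.51 and 20 of 22 tested members negative. Markers of other organs were negative there as well. Pancreatic acinar markers had a median of -0.46 with all 11 tested genes negative, choroid plexus markers -0.62 with all 8 negative, and proximal tubule markers -0.65 with 7 of 9 negative. Heart muscle markers had 0.00, with 6 of 9 positive. The 10 genes are not replicates of a condition, and the part of these other genes' shift in their shared sign was not tested.

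In kidney, 8 of the 10 fold changes were negative, with a median of -0.33 against -0.01 over all tested genes and 49.1% positive. Ttr had -0.89 ± 0.45 (p = 0.0460, adjusted p = 0.401) in the authors' deposited table, with implied means of 5607 normalized counts in wild-type and 3027 in deficient mice. Gc had -0.69 ± 0.36 there (adjusted p = 0.440), with implied means of 5376 and 3331 in the authors' deposited table. The positive ones were Fga, at 0.67 ± 0.94, and Trf, at 0.15 ± 0.36, in the authors' deposited table. Fgb and Fgg, the partners of Fga, had -0.30 ± 0.55 and -0.42 ± 0.55 in the authors' deposited table, so the 3 chains differed in sign but not beyond their errors. Heart muscle markers were negative in kidney too, 8 of 8 tested with a median of -0.60, and intracellular hepatocyte genes had -0.33 with 16 of 22 negative. Their part in the members' values was not tested.

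In the liver-named table the median was -0.11, against -0.05 over all tested genes and 47.1% positive, with 3 positive and 7 negative. Ttr, which stood out there by its level, had 0.12 ± 0.58 in the authors' deposited table, with implied means of 93127 and 101363 normalized counts in wild-type and deficient mice. Trf had 0.36 ± 0.44 there, and Ahsg a fold of 0.997 with a 95% interval of 0.340 to 2.92. In spleen, 9 of 10 were negative, with a median of -0.20 against -0.01 over all tested genes and 49.5% positive. Trf was the positive one, at 0.39 ± 0.61, and Fga had the lowest value, -0.66 ± 0.67, in the authors' deposited table. Alb had -0.05 ± 0.64 there, with a 95% interval of the fold of 0.405 to 2.30.

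**Figure D2:**
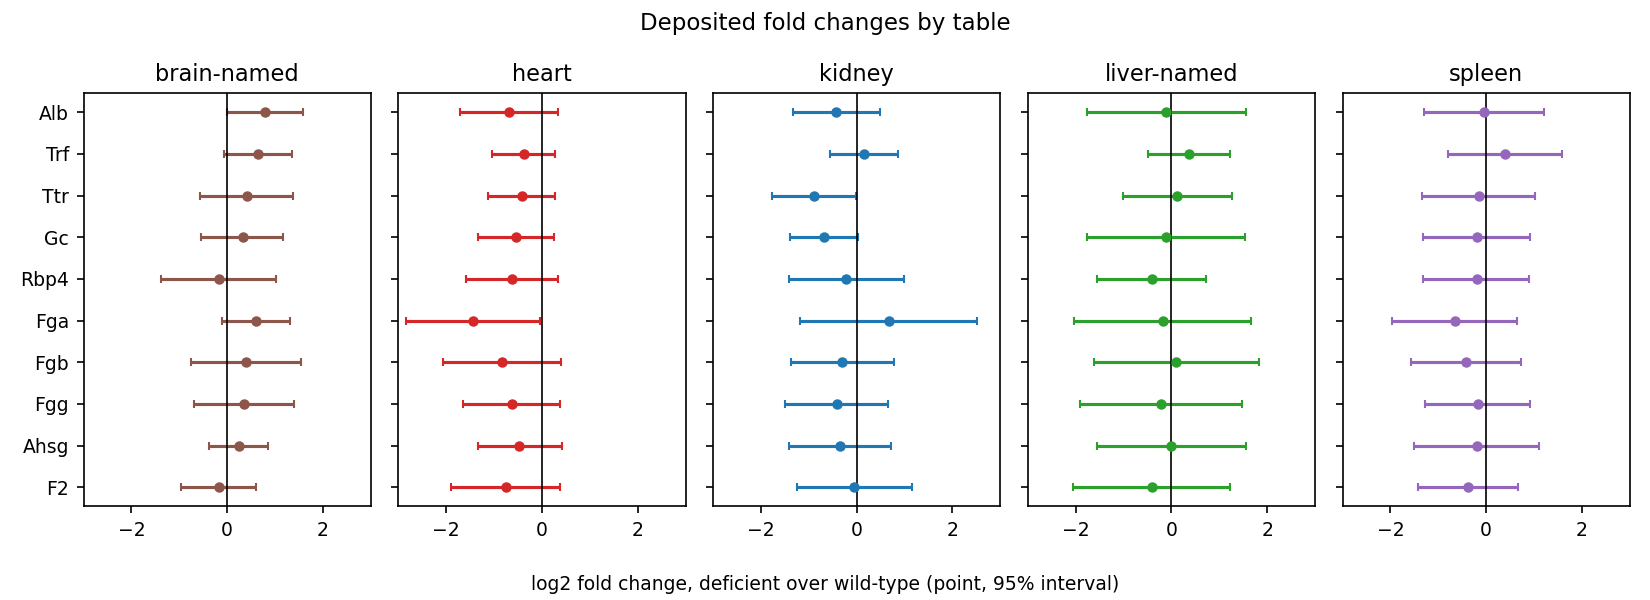
Each panel is a deposited table, each row a gene; points are log2 fold changes (deficient over wild-type) and bars their 95% intervals from the authors' SE. The 10 heart points lie left of 0 and 8 of the 10 brain-named points right of it, and only Fga in heart and Ttr in kidney have an interval that leaves out 0, by 0.03 and 0.02.

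The errors of the 10 genes were set against those of genes of like mean. In the liver-named table the authors' deposited SEs were 0.84 for Alb, 0.84 for Gc, 0.83 for F2, 0.79 for Ahsg, and 0.94, 0.88 and 0.86 for Fga, Fgb and Fgg. Tested genes within a factor of 2 of the same mean had median SEs of 0.44, 0.43, 0.51, 0.46, 0.79, 0.59 and 0.58. Trf (0.44 against 0.44), Ttr (0.58 against 0.43) and Rbp4 (0.58 against 0.44) had the smallest SEs of the 10 there. In all, 9 of 10 SEs exceeded that of genes of like mean in the liver-named table, with a median ratio of 1.49, against 4 of 10 in heart, 5 of 10 in kidney, 5 of 10 in spleen and 5 of 8 in the brain-named table, where Alb and Trf have too few genes of like mean. At a like mean, a larger SE stands for a larger estimated spread between libraries. Intracellular hepatocyte genes had a median SE of 0.81 in the liver-named table and heart muscle markers one of 0.72, while neuron and oligodendrocyte markers had 0.49 and 0.45. These lists were not matched for mean. Genes of like mean had a median SE of 0.97 for the hepatocyte gene Uox (mean 22.7) and 0.44 for the neuron marker Tubb3 (104893).

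**Figure D3:**
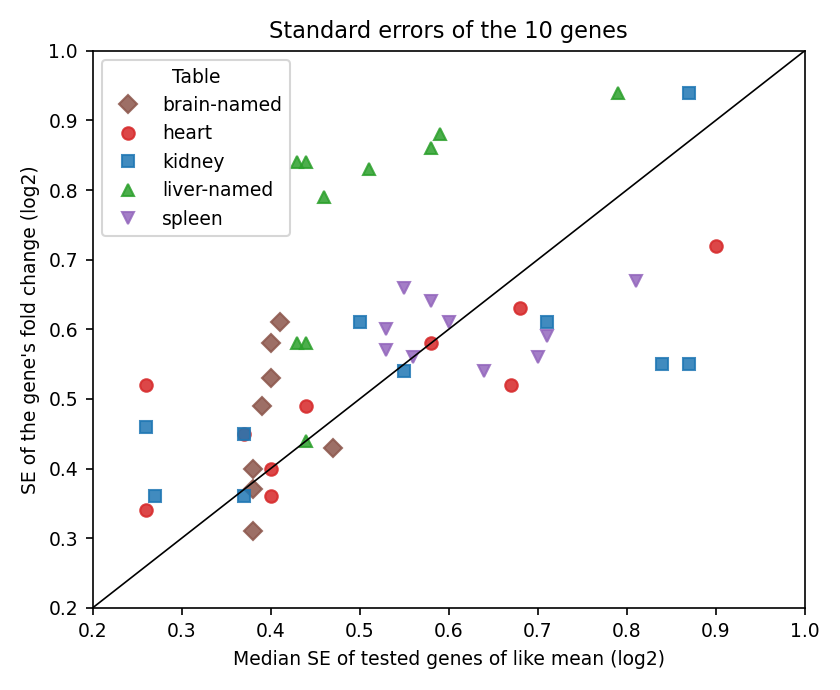
Each point is 1 of the 10 genes in a deposited table: the y axis is the SE of its log2 fold change, the x axis the median SE of tested genes of like mean, and the line marks equality. The liver-named points other than Trf, Ttr and Rbp4 lie at SEs of 0.79 to 0.94, mostly far above the line, with medians of 0.43 to 0.59 for all but Fga.

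Whether the fold changes differed between organs was tested with a 2-sided z from the deposited SEs, adjusted by Benjamini and Hochberg over all genes tested in both tables. Over the 10 pairs of tables, 0 of 100 differences of the members passed, and 4 had an unadjusted p under 0.05. The smallest p was that of Fga between the brain-named and heart tables, which differed by 2.04 ± 0.80 on the log2 scale (adjusted p = 0.287). For Alb the brain-named value exceeded that of the heart by 1.47 ± 0.66 (adjusted p = 0.398) and that of the kidney by 1.21 ± 0.62 (adjusted p = 0.410). For Trf the difference of brain-named and heart was 1.03 ± 0.50 (adjusted p = 0.442). The opposite signs in the brain-named and heart tables are therefore not shown to differ for any single member. Over all genes, 0.452% of 16605 passed in that pair and 10.2% had an unadjusted p under 0.05, against 3 of the 10 members. The z takes the tables as independent, although 4 organs share mice.

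Other secreted liver proteins were read from lists beside the 10 genes. Of 21 further clotting factors and regulators, 16 to 20 were tested per table and 2 passed in all. Serpina10, the protein Z-dependent protease inhibitor, rose in kidney, with 5.82 ± 1.67 (adjusted p = 0.0298) at a mean of 175 in the authors' deposited table. That mean is implied to be 6.09 normalized counts in wild-type and 344 in deficient kidney, and the call was lost at a rate of 1% and with the test statistic divided by its robust spread over genes. Pros1, the protein S gene, rose in the liver-named table, with 1.39 ± 0.35 (adjusted p = 0.0446) at a mean of 1058 in the authors' deposited table. That call was lost at 1%, with p-values adjusted over all genes that have one, and with the divided statistic. Of 20 other plasma carriers, Igfals, which holds insulin-like growth factors in plasma, rose in heart, with 0.79 ± 0.21 (adjusted p = 0.0210) at a mean of 5954 in the authors' deposited table, and none passed elsewhere. The call of Igfals was lost at 1% and with the divided statistic too. In heart 13 of the 17 tested carriers were negative, and the median was -0.72. An unadjusted p under 0.05 was found for 7 of 17, against 10.6% of all tested genes in heart. The 7 were mixed in sign, with Igfals and Cp (1.04 ± 0.41 in the authors' deposited table) positive and the others negative.

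Some genes of these lists kept far more of their level in kidney than the members did. Among clotting genes with a kidney mean of at least 20, the kidney share passed 10% of the brain-named one for Pros1 (146%), F13b (104%), Serpina10 (35.3%), the plasmin inhibitor Serpinf2 (31.0%), the kininogen Kng2 (22.9%), Cpb2 (21.3%) and protein C, Proc (11.5%). The value of Serpina10 is a mean over both genotypes and rests on the deficient mice. Pros1 was not particular to kidney, with 70.4% in heart, 60.7% in the liver-named table and 72.6% in spleen. Among carriers, A1bg (2883%, at a mean of 96.2), Igfals (30.7%), Cp (15.1%) and Afm did so. Igfals was not particular to kidney either. It passed 10% in heart too, with a mean of 5954 there and 4078 in kidney. The value of A1bg rests on the deficient mice too, with implied means of 1.78 normalized counts in wild-type and 191 in deficient kidney. Its brain-named mean was only 5.05, and the authors gave it no p-value in kidney. Afm, the gene of a vitamin E carrier that lies next but one to Alb, had a mean of 17129 in kidney and 129828 in the brain-named table, while Alb stood at 0.516% in kidney. By the same rule, in the liver-named table Pros1, protein Z (Proz, 20.3%), Itih3 (13.3%) and Cpb2 (11.5%) passed, beside Ttr at 25.5%. This rule was chosen after the values were seen, and the shares are a description.

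Receptors that take up the members were highest in different tables. Megalin (Lrp2) had a deposited mean of 188969 in kidney and 569 to 872 elsewhere, and amnionless (Amn) 38842 in kidney and 49.0 to 4181 elsewhere. Cubilin (Cubn) did not follow them, with 208 in kidney and 318 in the liver-named table. The transferrin receptor Tfrc was highest in the liver-named table, at 14610.4, where Trf outside the brain-named table was highest too. The retinol-binding protein receptor Stra6 had 419.6 in the liver-named and 234 in the kidney table, against 13.3 to 32.4 elsewhere. The asialoglycoprotein receptor Asgr1, by which hepatocytes clear glycoproteins, had 105015 in the brain-named table. Tfr2, Stra6l and Fcgrt of the same list were highest in that table as well. Tfr2 had 15145 there and 25.1 to 252 elsewhere, and Stra6l 7347 there and 44.2 to 549 elsewhere. Fcgrt had 15019 there and 1508 to 7644 elsewhere. Of 18 receptor genes, 1 passed the genotype test: F2rl3, a thrombin receptor of platelets, rose in kidney, with 6.73 ± 1.59 (adjusted p = 0.00334) at a mean of 92.2 in the authors' deposited table. Its implied means were 1.72 normalized counts in wild-type and 183 in deficient kidney. Its SE was above the median of 0.93 for kidney genes of like mean.

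Transcription factors of hepatocytes had median shares of 10.5% (heart), 32.7% (kidney) and 21.5% (spleen) of their brain-named ones, against 0.192%, 0.491% and 0.414% for the 10 members, and ran from 0.860% to 265% in the liver-named table. The list was mixed. Creb3l3, with the highest brain-named mean of the list (29022), stood at 0.276%, 0.541% and 0.678% in heart, kidney and spleen. Nfia stood at 356%, 265% and 235% there. Hnf4a stood at 119% of the brain-named share in kidney, a tissue in which it is known to act, and at 0.517% to 2.44% in the heart, liver-named and spleen tables. Of 12 such factors, 1 passed the genotype test, in 1 table. Foxa2, one of the FOXA factors, had a mean of 129 normalized counts in spleen. The authors' deposited table gives it a log2 fold change of -6.19 ± 1.21 there (adjusted p = 0.000835). Its implied means were 255 normalized counts in wild-type and 3.49 in deficient spleen. Pancreatic acinar markers took large shares of the spleen table, among them Pnlip (5.59%), Cela1 (3.58%) and Amy2a5 (3.39%). The deposited log2 fold change of Amy2a5 in spleen was -0.30 ± 1.11. Deposited fold changes of pancreatic islet markers were negative there too, from -0.23 (Sst and Chga) to -3.55 ± 2.76 (Ins1). Ins2 had -2.84 ± 1.19 and Gcg -3.17 ± 1.27, and none of these passed. The part of pancreatic tissue in the Foxa2 value was not tested. Of 24 intracellular hepatocyte genes and 13 apolipoproteins, 0 passed in any table, with smallest adjusted p of 0.0827 and 0.0716 in the authors' deposited tables and 0 to 3 per table at an unadjusted p under 0.05. Of 18 acute-phase genes, Serpina3n rose in kidney, with 3.52 ± 0.93 (adjusted p = 0.0151) at a mean of 59.5 in the authors' deposited table. Its implied means were 9.53 normalized counts in wild-type and 109 in deficient kidney, and it did not pass at a rate of 1%.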

How the data were processed

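Degradome libraries of brain, heart, kidney, liver and spleen were grouped by organ and genotype as their labels state. Per the submitters' processing notes, the authors used GRCm39, featureCounts, Subread 2.0.3 and DESeq2, with the DESeq2 model not given in the sources used here. The authors' deposited mean is a signal: normalized counts, averaged over an organ's libraries. Fold changes and standard errors (SE) were deposited as log2 values. The deposited Wald statistic is a score, the fold change over its standard error. Each p-value, adjusted or not, was deposited by the authors. A row without a gene name in each, at most 5.32e-06% of the sum, was left out.

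Computed here were shares of a table's sum, 95% intervals (fold change ± normal quantile times SE), means per genotype implied by mean and fold change, an SD between libraries implied by the SE and the group sizes, and z differences between tables. Depth per library is unknown, so precision rests on the SE. The threshold was an adjusted p of 0.05.

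The genes and lists were chosen with earlier results of these data known. Named were all 10 members, Ftsj1, listed genes past the threshold (at most 4 per list and table) and the gene of the largest share in a list, and the 5 most similar profiles for Alb, Ttr, Trf and Rbp4, over genes with a mean of at least 20 in a table and with a pseudocount of 1 ppm on shares. Others were named after their values were seen, and some listed items are not reported here. Amy2a5 and Adrb3, of the acinar and adipocyte lists, also passed. The z test was checked on simulated data. Alternatives were thresholds of 1% and 10%, other adjustments, centring, rescaled statistics and other sums. Scripts ran in Python 3.11.15 (scipy 1.17.1, numpy 2.4.6, pandas 2.3.3, matplotlib 3.10.9).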

Additional observations from a re-analysis of the deposited data

Results flagged for a closer look

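None of the 10 genes had fold changes that differed between organs past the threshold. Among the other listed genes that passed in some table, the following did by the z test over all genes of a pair of tables, though each was picked for its change in 1 of these tables. Amy2a5, a pancreatic amylase, had a log2 fold change 3.09 higher in the brain-named than in the heart table. Serpina10 differed by -5.92 and Serpina3n by -4.11 between the brain-named and kidney tables, both lower in the brain-named one. Serpina3n was 3.81 higher in kidney than in the liver-named table. Foxa2 was 7.76 higher in the liver-named than in the spleen table.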

How the results depend on the processing

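The count of members past the threshold stayed at 0 in all 5 tables at rates of 1% and 10%, with p-values adjusted over all genes that have one, with fold changes centred on the table's median and with the statistic divided by its robust spread. The medians of the 10 fold changes kept their sign when centred, and 0 differences between tables passed at 10% or when adjusted over all 10 pairs together. Genes past the threshold in the lists of other clotting proteins, carriers, receptors and transcription factors depended on the setting. In heart their number went from 1 to 0 at a rate of 1% and to 0 with the rescaled statistic. In the liver-named table it went from 1 to 0 at 1%, to 0 with p-values adjusted over all genes that have one and to 0 with the rescaled statistic. In spleen it went from 1 to 2 at 10% and to 2 with the rescaled statistic. In the kidney it went from 2 to 1 at 1% and to 1 with the rescaled statistic.

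Taking the deposited mean in place of the share multiplied the percents of the brain-named level by 0.66 to 0.93, more than the spread between libraries for 7 of 40, and leaving Alb and pancreatic acinar genes out of the sums by 0.77 to 0.92. By Pearson correlation, the 5 most similar genes shared 3 with those given for Alb, 0 for Ttr, 1 for Trf and 2 for Rbp4. A level per length was not run, for want of transcript lengths, and leaving out replicates was not possible with tables of means. No paired analysis was possible because the tables hold no values per library. The limits of these data are the SEs: at 0.31 to 0.94 on the log2 scale, intervals span differences of more than 2-fold.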
